A study of Mus musculus with 4 samples.

Results

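The genes described here are those of MHC class I and class II antigen presentation on a mouse expression array. They were taken as every probe set whose annotation gives exactly 1 gene symbol and whose symbol starts with H2- or is Cd74, Ciita, Ifi30, Lgmn, B2m, Tap1, Tap2 or Tapbp. This gave 49 of the 12488 probe sets of the array, for 36 of the 8252 genes with such a probe set. Of these, 31 probe sets (20 genes) belonged to class I, 16 (15 genes) to class II, and 2 measured H2-Ke6, a gene of the MHC region with no part in presentation. RNA came from thioglycolate-elicited peritoneal exudate cells of female BALB/c mice aged 6 to 8 weeks, kept overnight in serum-free medium with porcine TGFb2 (5 ng, with no volume in the labels) or with PBS. Each group, TGFb2 and PBS, had 2 arrays. The adherent cells used were over 95% positive for the macrophage marker F4/80 per the labels. Whether the arrays of a group stem from different mice or cultures is not in the labels, and a p-value here refers to the variation among 4 arrays, part or all of which may be technical. In such bulk RNA, fewer cells of a type and less RNA per cell cannot be told apart.

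Class I molecules show peptides made in the cytosol to CD8 T cells. A heavy chain (H2-K1, H2-D1) pairs with beta-2 microglobulin (B2m), and its peptide arrives through the transporter Tap1/Tap2, to which tapasin (Tapbp) bridges it. Class II molecules show peptides of engulfed proteins to CD4 T cells: the paired chains of I-A (H2-Aa, H2-Ab1) and I-E (H2-Ea, H2-Eb1) travel with the invariant chain (Cd74), the protease legumain (Lgmn) and the thiol reductase Ifi30 prepare antigen in endosomes, and H2-DM loads the peptide under the restraint of H2-O. The transactivator Ciita switches on class II genes, and interferon gamma is the best known signal that raises both pathways in macrophages. TGF-beta is known from other work as a repressor of interferon-induced class II expression. The labels name no interferon among what the cultures here received.

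Promoters of class II chains and of classical class I genes are known from other work to carry an X and a Y element. Ciita (class II) and Nlrc5 (class I) act through these. Promoter stretches of some genes measured below are shown for this reason, and this control is not claimed for every member. The H2-K1 and H2-D1 stretches also hold a match of an interferon and of an NF-kB type motif, and the B2m stretch holds neither. The stretches come from RefSeq's GRCm38.p6 assembly, which is of the C57BL/6J strain and so of another MHC haplotype than BALB/c. They are written 5′ to 3′ on the gene's strand, and capitals mark the matches of the motifs ATTGG (the core of the Y element), GCAAC (the RFX core of the X element), TGACG (the core of a CRE, as in the second part of the X element), TTTCNNTTC (core of the interferon-stimulated response element) and GGGGATTCC (NF-kB type), searched on both strands.
H2-K1, chr17:34000349-34000468, minus strand: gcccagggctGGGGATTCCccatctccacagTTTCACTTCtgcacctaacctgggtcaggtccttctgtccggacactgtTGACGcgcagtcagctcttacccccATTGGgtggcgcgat
H2-D1, chr17:35262872-35263094, plus strand: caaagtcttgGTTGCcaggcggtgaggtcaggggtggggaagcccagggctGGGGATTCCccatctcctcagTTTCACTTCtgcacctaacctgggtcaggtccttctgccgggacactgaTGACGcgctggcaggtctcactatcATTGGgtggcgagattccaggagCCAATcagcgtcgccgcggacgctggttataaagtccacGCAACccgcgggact
B2m, chr2:122147599-122147648, plus strand: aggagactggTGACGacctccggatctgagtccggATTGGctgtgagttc
H2-Aa, chr17:34287857-34287914, minus strand: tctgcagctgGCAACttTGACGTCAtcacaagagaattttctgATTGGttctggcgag
H2-Eb1, chr17:34305766-34305846, plus strand: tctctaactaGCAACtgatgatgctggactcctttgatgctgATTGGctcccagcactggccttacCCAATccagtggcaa

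TGACG started 25 bases before ATTGG in H2-K1, H2-D1 and B2m alike. The H2-K1 and B2m stretches held no match of GCAAC. In H2-D1 a GCAAC match on the other strand started 136 bases before ATTGG, and another match lay after it. In H2-Aa the 2 overlapping TGACG matches, 1 on each strand, started 26 and 23 bases before ATTGG, and GCAAC started 33 bases before it in H2-Aa and 32 in H2-Eb1. A window of 300 bases (250 before and 50 after the start) was on hand for 12 class I and 10 class II member genes. ATTGG was in 11 of the 12 and 8 of the 10, against 37.9% of 27025 promoter windows. TGACG was in 8 class I and 2 class II windows (21.0% of all windows) and GCAAC in 3 and 7 (35.4%). TTTCNNTTC was in 6 class I and 0 class II windows (7.56%), and GGGGATTCC in H2-K1 and H2-D1 alone among the 22 (0.259%). GTCTAGAC, a palindrome bound by SMAD proteins, was in 0 of the 22 windows (0.211%). These are matches of letters in a window and not shown binding sites.

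The values are MAS5 signals, a background-corrected brightness for each probe set on a linear scale. Median signals were 45.6 and 40.1 on the TGFb2 arrays and 43.5 and 40.6 on the PBS arrays, and log2 signals of tested probe sets correlated at 0.967 between the TGFb2 arrays and at 0.978 between the PBS arrays. Some known TGF-beta targets were higher on the TGFb2 arrays, in a list chosen with earlier results of these data known. Of 6 tested genes of this TGF-beta response list, 4 rose (Bgn, Eln, Tgfbi and Id3) with log2 differences of 1.91 to 2.92. The other 2, Smad7 and Skil, differed by 0.90 and 1.42 and did not pass (limma adjusted p = 0.19 and 0.10). The PBS signals of Skil, 8.2 and 6.3, lay below the filter level given below. Differences are given as TGFb2 minus PBS of log2(signal + 15), which understates the change of dim genes. Of the members, 41 probe sets had a mean signal over the 4 arrays of at least 25.1, the 40th percentile, and were tested with limma across all 7453 such probe sets.

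None of the 41 tested members passed an adjusted p of 0.05 in limma, where 1.17% of all tested probe sets did. At an unadjusted p under 0.05 there were 3 members (7.32%), against 11.7% of all tested probe sets. The 3 were the dimmest H2-K1 set and Lgmn, which were lower with TGFb2, and H2-Ke6, which was higher. The TGFb2 and PBS signals did not overlap for 14 members (34.1%), against 42.9% of all tested probe sets. Of these 14, 10 were higher with TGFb2 and 4 lower, while of all tested probe sets 21.1% were higher and 21.8% lower without overlap. Among the 10 higher ones, 7 were class I sets with an identifier ending that warns of shared targets. Differences of the 41 members ran from -0.64 to 0.52 with a median of 0.05, against a median of -0.00 over all tested probe sets. The median size of a difference, without its sign, was 0.16 for the members and 0.19 for all tested probe sets, and the gap between 2 arrays of a group had a median of 0.14 and 0.21. For 36 members (87.8%) the 95% interval of the difference lay inside a 2-fold change in either direction, that is between -1 and 1, as it did for 82.2% of all tested probe sets. The other 5 were the dimmest H2-K1 set, 2 sets of H2-M10.1, the dimmer H2-DMa set and H2-Ob.

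**Figure D1:**
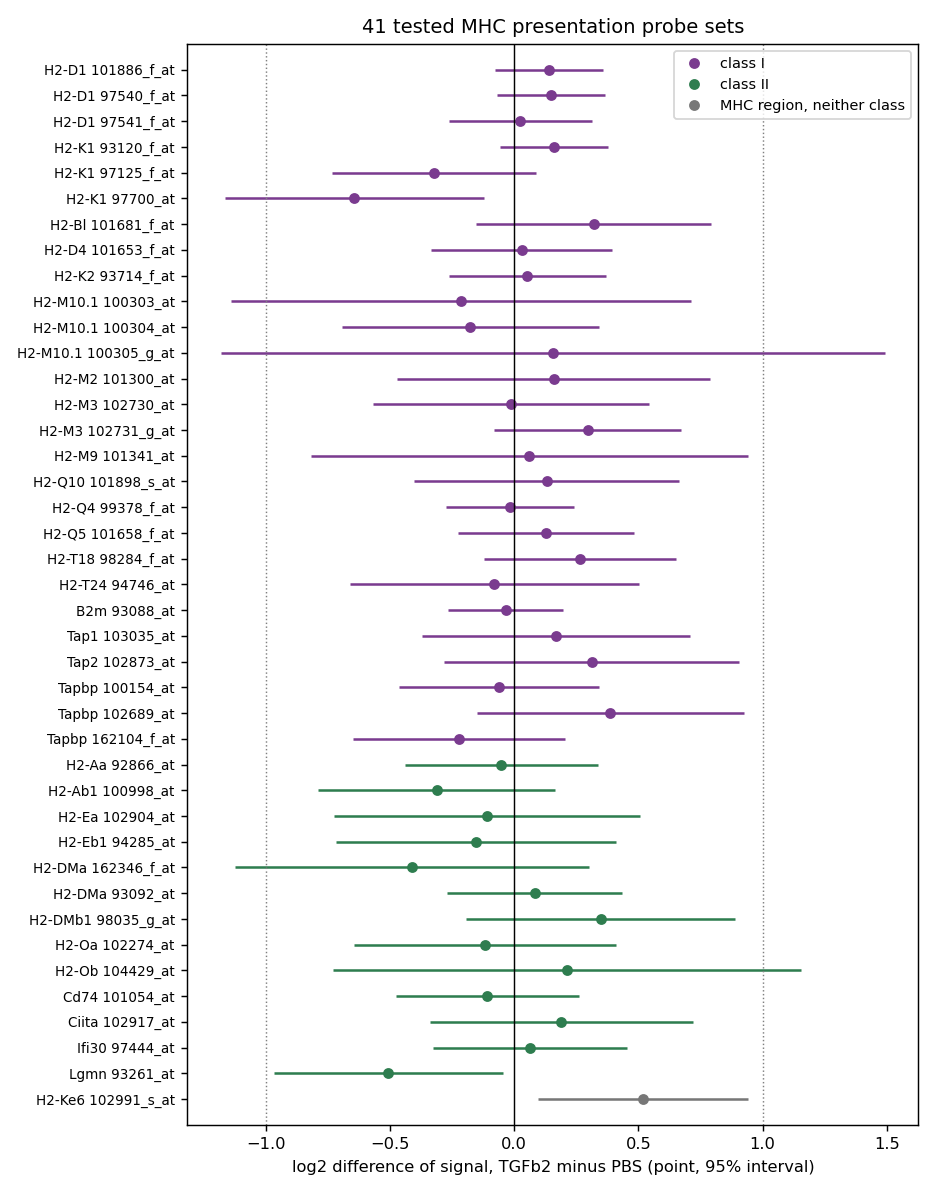
The log2 difference of signal, TGFb2 minus PBS, on the horizontal axis for each of the 41 tested probe sets (rows, by class and role), with the limma 95% interval as a line. Dotted lines mark 2-fold lower and higher. All but 3 intervals cross 0, and those 3 (an H2-K1 set, Lgmn and H2-Ke6) miss the threshold after adjustment.

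The 4 tested class II chains had negative differences, with a median of -0.13. The TGFb2 and PBS signals overlapped for each of the 4 and none passed the threshold. The I-A alpha chain H2-Aa had signals of 241 and 251 on the TGFb2 arrays and 271 and 241 on the PBS arrays. The 4 values lay close together, with a log2 difference of -0.05 ± 0.17 (SE) and a 95% interval of -0.44 to 0.34 (limma adjusted p = 0.94), which as a fold is 0.737 to 1.26. Its partner H2-Ab1, the I-A beta chain, had 145 and 110.0 on the TGFb2 arrays, against 178 and 145 on the PBS arrays. One TGFb2 array matched the lower PBS array and the other lay below both, a difference of -0.31 ± 0.20 (SE, limma adjusted p = 0.62) with a fold between 0.579 and 1.12. It was -0.49 without TGFb2 replicate 1 and -0.13 without TGFb2 replicate 2, -0.18 without PBS replicate 1 and -0.45 without PBS replicate 2.

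The I-E alpha chain H2-Ea had 249 and 225 on the TGFb2 arrays and 343 and 191 on the PBS arrays. The PBS arrays bracketed both TGFb2 arrays, and the difference of -0.11 had an interval of -0.72 to 0.50. H2-Ea is transcribed in the BALB/c haplotype, whereas C57BL/6 mice lack its product. The I-E beta chain H2-Eb1 had 361 and 216 on the TGFb2 arrays, against 325 and 300.2 on the PBS arrays. Here the TGFb2 arrays bracketed the PBS arrays, and the difference was -0.15 with an interval of -0.72 to 0.41.

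The class II partners outside the chains also stayed below the threshold. The invariant chain Cd74 had signals of 872 and 875 on the TGFb2 arrays and 1050 and 846 on the PBS arrays. The TGFb2 values fell between the PBS values, with a difference of -0.11 ± 0.16 (SE) and a fold between 0.720 and 1.20. The transactivator Ciita had 72.3 and 69.5 on the TGFb2 arrays, against 72.9 and 49.5 on the PBS arrays. The second PBS array was lower than the other arrays, giving a difference of 0.19 ± 0.23 (SE, limma adjusted p = 0.80). The reductase Ifi30 had 1817 and 2493 with TGFb2 and 2121 and 1953 with PBS, and the groups overlapped (difference 0.06, interval -0.33 to 0.46).

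Legumain (Lgmn), the asparaginyl endopeptidase of endosomes, had signals of 1391 and 1266 on the TGFb2 arrays, against 2320 and 1542 on the PBS arrays. Both TGFb2 arrays lay below both PBS arrays, while the PBS arrays stood further apart from each other than the TGFb2 arrays did. The difference was -0.51 ± 0.20 (SE), with an interval of -0.97 to -0.05 (limma unadjusted p = 0.0349, adjusted p = 0.38). It was -0.21 without PBS replicate 1 and -0.80 without PBS replicate 2.

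The chains that edit the class II peptide showed differences in both directions. The brighter H2-DMa set had 558 and 537 on the TGFb2 arrays and 538 and 495 on the PBS arrays, a difference of 0.08 with a fold between 0.828 and 1.35. The dimmer one had 25.1 and 54.7 with TGFb2, against 50.1 and 60.9 with PBS (-0.41, interval -1.12 to 0.30). H2-DMb1, the partner of H2-DMa, had 73.6 and 89.5 on the TGFb2 arrays and 73.5 and 49.6 on the PBS arrays. The groups were separated by only 0.1 of signal, and the difference of 0.35 ± 0.23 (SE) did not pass (limma adjusted p = 0.63). Leaving out 1 array moved it between 0.12 (without PBS replicate 2) and 0.57 (without PBS replicate 1), and moved the dimmer H2-DMa set between -0.81 (without TGFb2 replicate 2) and -0.01 (without TGFb2 replicate 1). The chains of the DM inhibitor H2-O, best known from B cells, were dim: H2-Oa had 48.3 and 51.2 with TGFb2 and 63.4 and 47.8 with PBS. H2-Ob had 46.8 and 13.7 with TGFb2, and both PBS values lay between these.

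**Figure D2:**
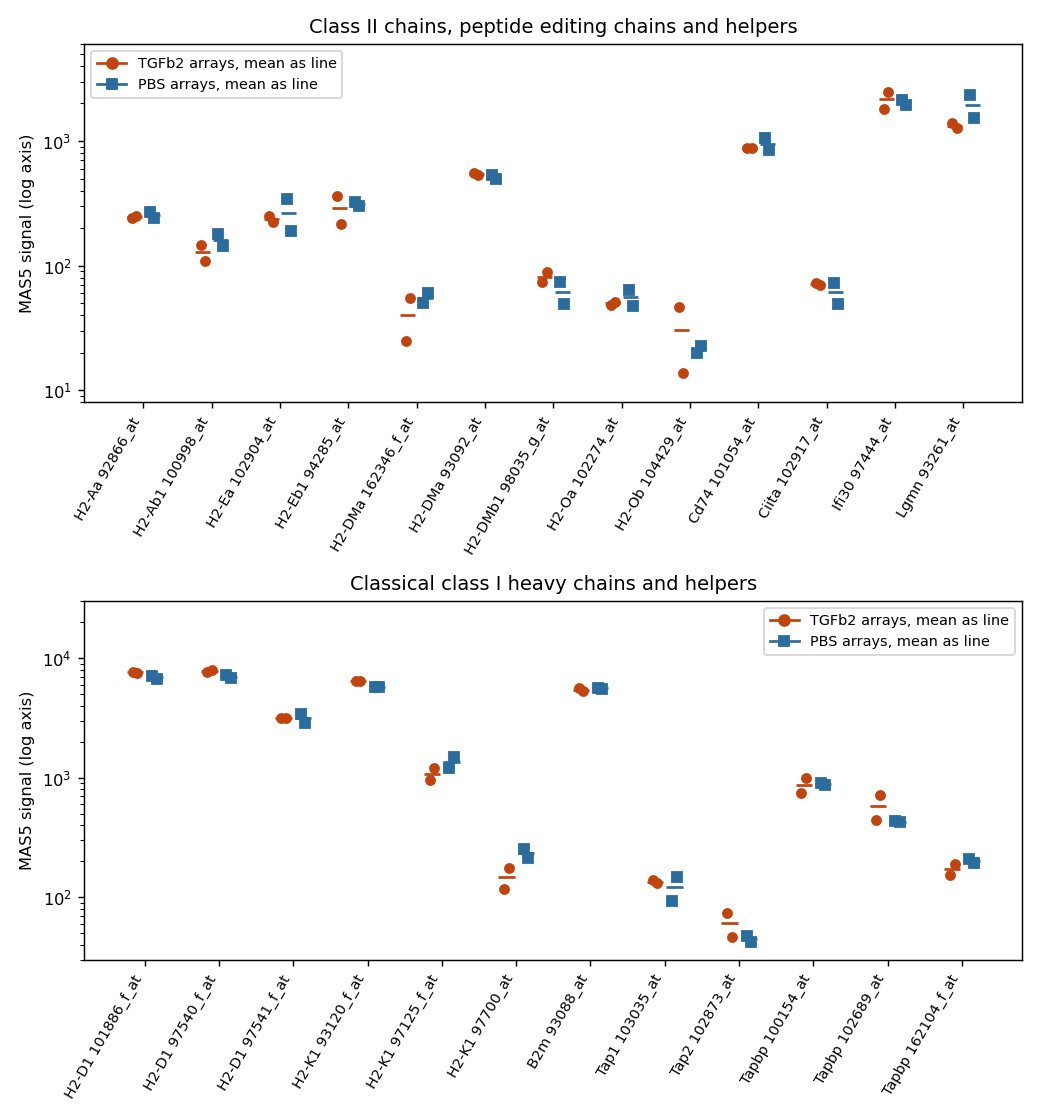
MAS5 signal on a log axis for each tested class II probe set (upper panel) and for the classical class I heavy chains with B2m, Tap1, Tap2 and Tapbp (lower panel), with TGFb2 arrays as circles left of the PBS arrays as squares and group means as lines. H2-Aa, Cd74 and B2m overlap between the groups, while both TGFb2 arrays of Lgmn and of the dimmest H2-K1 set lie below both PBS arrays.

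In class I, the invariant light chain B2m had signals of 5664 and 5280 on the TGFb2 arrays and 5636 and 5567 on the PBS arrays. These overlapped, with a difference of -0.03 ± 0.10 (SE), an interval of -0.27 to 0.20 and a fold between 0.832 and 1.15 (limma adjusted p = 0.93). The brightest H2-K1 set and the H2-D1 sets have identifiers ending in _f_at, a mark of sets that can pick up related transcripts. That H2-K1 set had 6480 on each TGFb2 array, against 5800 and 5797 on the PBS arrays. The arrays of a group were nearly equal and the groups did not overlap, but the fit pools the spread with other probe sets and gave a difference of 0.16 ± 0.09 (SE, limma adjusted p = 0.58). The 2 brightest H2-D1 sets gave 7600 and 7994, and 7739 and 7528, on the TGFb2 arrays, against 7188 and 6875, and 7144 and 6718, on the PBS arrays. Both sets were higher without overlap, by 0.15 and 0.14, and neither passed (limma adjusted p = 0.61 and 0.63). After quantile normalization of the arrays these 2 differences were -0.04 and -0.04, so their direction depended on the scaling.

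The peptide transporter chain Tap1 had signals of 138 and 131 on the TGFb2 arrays and 92.7 and 149 on the PBS arrays. Its TGFb2 values fell between the PBS values, with a difference of 0.17 and an interval of -0.37 to 0.71. Tap2, the other chain, had 74.1 and 46.5 with TGFb2, against 47.6 and 41.8 with PBS. Only the first TGFb2 array stood out, and the difference of 0.31 had an interval of -0.28 to 0.91 (limma adjusted p = 0.70) and was 0.04 without that array. The peptide-loading factor tapasin (Tapbp) had 742 and 986 on the TGFb2 arrays and 909 and 877 on the PBS arrays in its brightest set. The groups overlapped there (difference -0.06), while its other sets differed by 0.39 and -0.22, both without overlap and neither past the threshold. The set at 0.39 had 444 and 723 with TGFb2 and 431 and 429.8 with PBS, and the set at -0.22 had 153 and 190.0 with TGFb2, against 209 and 194 with PBS. The first of these was 0.04 without TGFb2 replicate 2 and 0.73 without TGFb2 replicate 1, and the second -0.37 and -0.08.

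Of the other heavy chains, 15 probe sets of 12 genes were tested, and their differences ran from -0.22 to 0.32 with a median of 0.06. There were 10 positive and 5 negative differences, with 5 of the 15 free of overlap (33.3%, against 42.9% of all tested probe sets). H2-M3, which presents formylated bacterial peptides, had signals of 261 and 269 on the TGFb2 arrays, against 213 and 213 on the PBS arrays, in its brighter set. Its arrays were close within each group and the difference of 0.30 ± 0.16 (SE) did not pass (limma adjusted p = 0.55). The thymus leukaemia antigen gene H2-T18 had 403 and 420.4 with TGFb2 and 314 and 369 with PBS, a difference of 0.26 (interval -0.12 to 0.65). H2-Bl had 651 and 447 with TGFb2, against 420 and 439 with PBS, and its difference of 0.32 was 0.06 without TGFb2 replicate 1, as the other TGFb2 array lay close to the PBS values.

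H2-Q4, of the Q region of class I genes, had 3419 and 3202 on the TGFb2 arrays and 3410 and 3283 on the PBS arrays, a fold between 0.828 and 1.18. H2-Q5 had 472 and 473 with TGFb2, against 426 and 436 with PBS (difference 0.13), and the TGFb2 arrays lay above without passing. H2-K2 and H2-D4 differed by 0.05 and 0.03. H2-Q10, known as a secreted liver product, had 86.3 and 71.4 with TGFb2 and 85.1 and 58.0 with PBS. H2-T24 had 32.1 and 33.7 with TGFb2, against 37.2 and 34.1 with PBS. H2-M2 and H2-M9 differed by 0.16 and 0.06, with signals between 46.7 and 123.

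Many class I identifiers carry an ending that warns of shared targets. Of the 31 class I sets, 18 had identifiers ending in _f_at, _s_at, _g_at, _i_at or _r_at, which on this platform mark sets that can pick up related transcripts or use fewer probes, against 3 of the 16 class II sets. Tested class I sets with such an ending had a median difference of 0.13 (15 sets, 12 positive), and plain class I sets one of -0.02 (12 sets, 5 positive). A further 11 probe sets were annotated with several symbols, at least 1 of them of this kind, and were not members. Of these, 7 were tested and 0 passed (limma), with differences of -0.44 to 0.14. A signal of a related heavy chain may therefore come from more than 1 gene, and what part shared probes or the BALB/c sequence play was not tested.

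Probe sets of 1 gene had differences of both signs for 5 of 6 genes with several tested sets. Of all these sets, only the dimmest H2-K1 set had an interval that excluded 0. That interval, -1.16 to -0.12, did not overlap the interval of the brightest H2-K1 set, -0.06 to 0.38. No test compared the sets of a gene with each other. The negative H2-M3 set lay at -0.01, with an interval of -0.57 to 0.54. For H2-K1 the differences were 0.16, -0.32 and -0.64 from the brightest to the dimmest set, a spread of 0.80. The dimmest set, whose identifier has a plain ending, had signals of 117 and 176 on the TGFb2 arrays, against 254 and 213 on the PBS arrays. Both TGFb2 arrays lay below both PBS arrays, with an interval of -1.16 to -0.12 (limma unadjusted p = 0.0219, adjusted p = 0.31), and leaving out an array gave -0.91 to -0.37. The intermediate set, with an _f_at ending, had 952 and 1206 with TGFb2 and 1203 and 1501 with PBS, with overlap, and leaving out an array gave -0.49 to -0.15. The 3 H2-D1 sets, like the brightest H2-K1 set, have an _f_at ending and had differences of 0.02 to 0.15, a spread of 0.12. The sets of Tapbp spread by 0.61, those of H2-DMa by 0.49, those of H2-M10.1 by 0.37 and those of H2-M3 by 0.31.

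**Figure D3:**
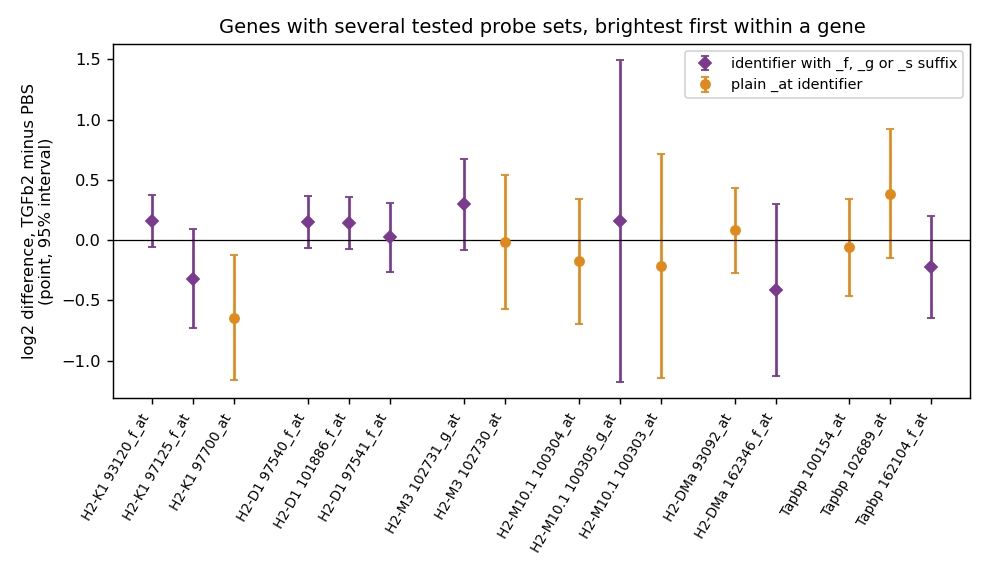
Log2 difference of signal, TGFb2 minus PBS, with its 95% interval, for the 6 genes with several tested probe sets, ordered from bright to dim within a gene. The H2-K1 sets run from 0.16 to -0.64, whereas the 3 H2-D1 sets stay between 0.02 and 0.15.

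The MHC region gene H2-Ke6, which encodes a steroid dehydrogenase, had signals of 183 and 155 on the TGFb2 arrays and 107 and 119 on the PBS arrays in its brighter set. Both TGFb2 arrays lay above both PBS arrays, and the difference of 0.52 ± 0.18 (SE, interval 0.10 to 0.94) did not pass (limma adjusted p = 0.31). Its other set was dim and not tested, with 15.8 and 15.7 with TGFb2, against 22.9 and 12.1 with PBS.

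Set against each other, the 27 tested class I sets had a median difference of 0.06 and the 13 tested class II sets of -0.11. Of the class I sets 17 were positive and 10 negative, and of the class II sets 5 and 8. Signals did not overlap for 11 class I sets (40.7%) and 2 class II sets (15.4%), against 42.9% of all tested probe sets. The gap between the medians was of the order of the replicate spread. Between arrays of a group the class II median varied by 0.14 (SD) and the class I median by 0.03. The class I median was -0.01 after quantile normalization and -0.02 over plain sets alone, and the class II median was 0.05 without PBS replicate 1, so neither sign held throughout.

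Genes that serve the 2 pathways without being members showed 1 change past the threshold. Among all tested probe sets 1.17% passed, so counts in lists this short say little about a list. Of 12 tested genes of the class I pathway (immunoproteasome, endoplasmic reticulum chaperones, class I-like molecules), 0 passed in either direction and the median difference was 0.02. Mr1 and Sec61a1 were higher and Hspa5, Psme1 and Pdia3 lower without overlap between the groups, as were 21.1% and 21.8% of all tested probe sets. The differences of largest size were those of Mr1, which presents vitamin metabolites, at 0.43 (limma adjusted p = 0.55), and of Cd1d1, which presents lipids, at 0.38 (limma adjusted p = 0.67). The immunoproteasome subunits Psmb8, Psmb9 and Psmb10 differed by 0.03, 0.01 and -0.06.

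Of 16 tested genes of the class II pathway, 1 rose, 0 fell and 15 did not pass, with a median difference of 0.04. The share of all tested probe sets past the threshold was 1.17%. Cathepsin H (Ctsh), a lysosomal aminopeptidase, had signals of 1300 and 1077 on the TGFb2 arrays, against 579 and 550.2 on the PBS arrays, a rise of 1.05 ± 0.16 (SE, limma adjusted p = 0.0339). Cathepsin S (Ctss), the protease known for the last cut of the invariant chain, differed by 0.15. Cathepsins D, B and Z (Ctsd, Ctsb, Ctsz) differed by 0.46 (limma adjusted p = 0.067), 0.39 (0.10) and -0.33 (0.28), and none passed. Each of these, Ctss included, was free of overlap between the groups, like 42.9% of all tested probe sets. Cst3 and Irf8 were also higher without overlap, by 0.16 and 0.42, and did not pass. Rfxank and Creb1, which bind the X element, and Nfya, Nfyb and Nfyc, which bind the Y element, differed by -0.29, -0.28, 0.26, -0.41 and -0.04, none past the threshold. Creb1 and Nfyb were lower without overlap. Of 9 tested genes of an interferon gamma input list, 0 passed, against 1.17% of all tested probe sets. This list also holds the interleukin 10 receptor chains Il10ra and Il10rb, and its median of -0.00 is the value of Il10rb. Ifngr2, Jak1 and Irf1 differed by -0.11, -0.22 and -0.11, and Jak2, Socs1 and Socs3 by 0.13, 0.03 and 0.40. The interferon gamma receptor chain Ifngr1 had 91.9 and 44.5 with TGFb2, against 119 and 104 with PBS, and did not pass (difference -0.66, limma adjusted p = 0.43). The interleukin 10 receptor chain Il10ra differed by 0.50 (limma adjusted p = 0.62).

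Class II transcripts are also made by B cells and dendritic cells, so marker levels are given beside them. Over all tested probe sets 1.17% passed, and 42.9% were free of overlap between the groups (21.1% higher and 21.8% lower with TGFb2). Of 7 tested B cell markers 0 passed, with a median difference of -0.04, and summed signals of the 8 on the array were 624 and 503 on the TGFb2 arrays and 611 and 565 on the PBS arrays. Their differences went both ways. Ighm had 148 and 85.4 with TGFb2, against 214 and 150.4 with PBS (difference -0.61, limma adjusted p = 0.45), and Blk differed by -0.34, both lower without overlap. Cd22 differed by 0.35, also without overlap, Pax5 by 0.29 with overlap, and Cd79a, Cd79b and Ms4a1 by -0.04, 0.09 and -0.08. Of 6 tested dendritic cell markers 0 passed. Their median was -0.05, with Cd83 at 249 and 178 on the TGFb2 arrays and 429 and 386 on the PBS arrays (difference -0.90, limma adjusted p = 0.10). Summed dendritic cell marker signals were 1924 and 1888 with TGFb2, against 2258 and 2092 with PBS. Itgax alone had 941.2 and 1177.8 of these with TGFb2, and 1022.5 and 991.9 with PBS. Zbtb46 and Ccr7 lay below the filter level. Fscn1, like Cd83, was lower without overlap (difference -0.47), while Itgax and Flt3 each differed by 0.06, Xcr1 by -0.06 and Batf3 by -0.05. Of 8 T and NK cell markers 7 lay below the filter level, among them Cd3e, Cd3g, Cd3d and Cd8a. Summed T and NK cell marker signals were 81.6 and 81.4 with TGFb2, against 87.7 and 47.1 with PBS. Of 9 tested macrophage markers 0 passed, with a median of 0.52 and summed signals of 17780 and 18220 on the TGFb2 arrays and 15820 and 16720 on the PBS arrays. Fcgr1, an Fc receptor, had 480.4 and 316 with TGFb2, against 178 and 162 with PBS (difference 1.13, limma adjusted p = 0.067). Mertk, Itgam, Csf1r, Msr1 and Cd68 differed by 0.78, 0.73, 0.55, 0.52 and 0.23, each higher without overlap. Adgre1, which encodes F4/80, and Cd14 differed by -0.05 and -0.19 with overlap, and Lyz2 by -0.10, lower without overlap. Of 7 tested fibroblast and mesothelium markers 1 rose (Col1a1) and 1 fell (Dcn). The part of these cell types in the presentation genes' levels was not tested.

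**Figure D4:**
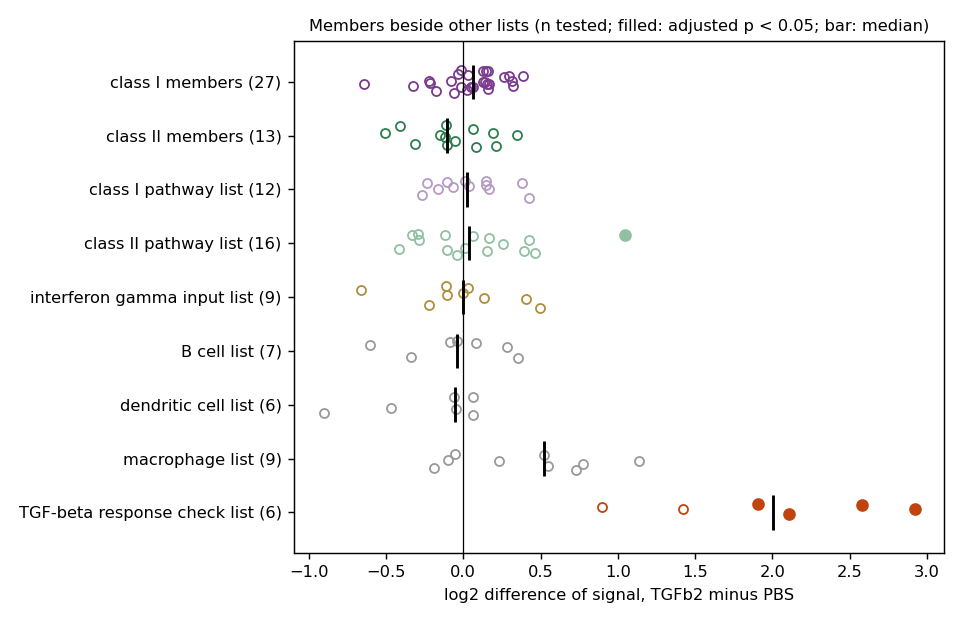
Log2 difference of signal, TGFb2 minus PBS, for each tested probe set of class I and class II members and for the brightest tested probe set of each gene in the other lists. Filled points passed an adjusted p of 0.05 and bars are medians. The members center near 0, at 0.06 and -0.11, while the TGF-beta response list lies between 0.90 and 2.92. That list was chosen with earlier results of these data known.

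The 8 members below the filter level were sets of Tap1, H2-D4, H2-M1, H2-Q1, H2-Eb2, H2-Pa, H2-DMb2 and H2-Ke6. For Tap1, H2-D4 and H2-Ke6 another set was tested, so 31 of the 36 genes had a tested set. H2-M1 had 9.6 and 5.1 on the TGFb2 arrays and 22.2 and 13.7 on the PBS arrays, and H2-Q1 had 10.6 and 8.1 with TGFb2, against 14.0 and 14.5 with PBS. H2-Eb2 was between 1.6 and 2.7 and H2-Pa between 5.9 and 12.0. H2-DMb2 ran from 10.9 to 38.9 and overlapped between the groups. H2-M1, H2-Q1 and H2-Pa were lower with TGFb2 without overlap, and the dim H2-D4 set, between 2.5 and 4.5, was higher. Fitted without the filter, 0 of the 49 members passed (limma), with 3 at an unadjusted p under 0.05. The nearest members inside the filter were H2-M10.1, at 37.6 and 10.0 with TGFb2 and 26.4 and 27.8 with PBS in its dimmest set, and H2-Ob.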

How the data were processed

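Expression was measured on 4 Affymetrix arrays hybridised with biotin-labelled cRNA. The deposited values are probe set intensities, MAS5 signals per the submitters' processing notes, whose version is not given in the sources used here. Their 2% trimmed means were equal (150.1) and no scaling was added. Detection calls were not used here, so depth enters only through brightness and the number of arrays. Gene symbols came from the platform annotation, and the gene IDs of all 49 members matched GRCm38.p6 with 0 symbols changed. The deposited intensities were taken to log2(signal + 15), 15 being 10% of the trimmed mean. Of 12422 probe sets that are not controls, the 7453 with a mean at or above the 40th percentile entered a linear model (limma 3.58.1, run under R 4.3.3, with eBayes and an intensity trend), TGFb2 minus PBS, two-sided, with Benjamini-Hochberg adjustment at 0.05. Intervals are 95% from the moderated fit, which was tested on simulated data. Every tested member could be named. Of other lists, genes past the threshold were named, or the 2 with the largest difference, and further genes named from them were chosen after their values were seen. Genes in lists count by their brightest tested probe set. Members and lists were chosen with earlier results of these data known. Other settings tried were the pseudocount, the normalization, the filter, the variance model, a replicate block, which sets stand for a gene, and dropping single arrays.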

Additional observations from a re-analysis of the deposited data

How the results depend on the processing

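The count of members past the threshold was 0 in limma under all 11 alternative fits, although the count over all probe sets, 87 here, was 70 and 83 with a smaller and a larger pseudocount (0.25 and 4 times), 66 after quantile normalization, 6 without the filter, 86 with the filter at the 60th percentile, 13 without the intensity trend, 11 and 25 without TGFb2 replicates 1 and 2, and 50 and 35 without PBS replicates 1 and 2. With the replicate number as a replicate block it was 324 over all probe sets and 0 among the members, and the smallest adjusted p of a member was 0.0685 (Lgmn). Same-numbered arrays deviated together only weakly (r = 0.142 across probe sets), and the labels give the number no meaning. The class I median difference, 0.06, was -0.0126 after quantile normalization, 0.128 with the filter at the 60th percentile, 0.129 with the brightest set per gene and -0.0239 over plain sets, and ran from -0.0433 to 0.133 when an array was left out. That of class II, -0.11, ran from -0.208 to 0.0457 in the same way. Quantile normalization turned 4 single differences, to -0.0388, -0.0433 and -0.0126 for the 3 H2-D1 sets and -0.0460 for H2-K2. Leaving out 1 array changed the sign of these members at least once, the lone array being assumed to vary like the other group. Class II and its helpers ran from -0.131 to 0.0257 (H2-Aa), -0.51 to 0.291 (H2-Ea), -0.503 to 0.198 (H2-Eb1), -0.276 to 0.0438 (H2-Oa), -0.342 to 0.765 (H2-Ob), -0.261 to 0.0457 (Cd74), -0.0334 to 0.413 (Ciita) and -0.163 to 0.291 (Ifi30). Class I helpers ran from -0.0849 to 0.0159 (B2m), -0.136 to 0.471 (Tap1) and -0.262 to 0.140 (the brightest Tapbp set). Heavy chains ran from -0.0917 to 0.140 (the dimmest H2-D1 set), -0.0406 to 0.1001 (H2-D4), -0.132 to 0.237 (H2-K2), -0.214 to 0.530 (H2-M2), -0.159 to 0.133 (the dimmer H2-M3 set), -0.519 to 0.642 (H2-M9), -0.0976 to 0.358 (H2-Q10), -0.0631 to 0.0309 (H2-Q4), and -0.752 to 0.321, -0.394 to 0.0412 and -0.616 to 0.928 (the H2-M10.1 sets). In all, 30 single differences under an alternative changed sign, 411 kept sign and side of the threshold, and none passed it. The cause of these changes was not tested.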
